A study of Mus musculus with 4 samples.

Results

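The nuclear genome encodes most subunits of the mitochondrial respiratory chain, and 45 of these genes were followed across single wells of mouse heart preparations. The 45 genes came from a fixed list of subunits of complexes I to IV and were all present among the 29245 gene columns of the deposited tables. Complex I had 20 members, complex II had 4, complex III had 7 and complex IV had 14. The list held 3 pairs of complex IV paralogs in which 1 gene is known for striated muscle (Cox6a2, Cox7a1 and Cox8b) and its partner for broad use (Cox6a1, Cox7a2 and Cox8a).

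Hearts came from 4 C57BL/6 mice. WT1 and WT2 were wild type, and KO1 and KO2 were labelled as deficient for Mst1/2, the kinases encoded by Stk4 and Stk3. Low-speed centrifugation at 100 x g had split each heart preparation into a cardiomyocyte (CM) and a non-cardiomyocyte (NCM) fraction, and the polyadenylated RNA of each well of a chip was counted with unique molecular identifiers (UMIs). The title of the series concerns a leukotriene B4 receptor antagonist and MST1/2 inhibition in myocardial infarction. The labels give no age, sex, injury, allele or promoter for these mice and do not name the cells in which the genes were removed. Each fraction of each genotype was a single chip holding both of its animals. Genotype and chip therefore cannot be told apart within a fraction, nor fraction and chip within an animal.

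Of 4275 wells, 3990 were kept because they held at least 10000 UMIs and 300 genes. These were 692 to 747 NCM wells and 210 to 385 CM wells per animal. In sums over wells, mitochondrial UMIs made up 7.45, 11.2, 58.1 and 36.5% of NCM UMIs in WT1, WT2, KO1 and KO2, the order used for all lists of 4 values below, and 38.1, 35.7, 47.2 and 36.4% of CM UMIs. The median CM well held 59348, 79435, 26756 and 126901 UMIs outside mitochondrial and haemoglobin genes, lowest in KO1. Levels are therefore given as UMIs per 1000000 UMIs outside mt-, Hba- and Hbb- genes (CPM), summed over the wells of an animal. They are not divided by transcript length, so levels of different genes are not ranked against each other. Pairs of chips shared 60 to 400 barcodes, which mark well positions. Stk4 stood at 53.1, 47.3, 45.8 and 37.5 CPM in NCM wells and at 32.3, 14.2, 17.9 and 9.31 in CM wells. Stk3 stood at 23.5, 38.6, 29.00 and 26.3 in NCM wells and at 12.7, 13.8, 31.2 and 11.9 in CM wells. Both RNAs were thus present in the animals labelled KO, and because the labels do not give the part of each gene that was removed, these counts could not check the genotype.

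The respiratory chain passes electrons from NADH and succinate to oxygen and pumps protons across the inner mitochondrial membrane, and ATP synthase uses the gradient to make ATP. Complex I oxidises NADH, complex II oxidises succinate as part of the citric acid cycle, complex III passes electrons from ubiquinol to cytochrome c, and complex IV (cytochrome c oxidase) reduces oxygen. Mitochondrial DNA encodes the core subunits of the membrane arm of complex I, cytochrome b of complex III and the catalytic subunits of complex IV, while complex II is wholly nuclear-encoded. Heart muscle relies on this pathway and is rich in mitochondria, and some complex IV positions are filled in muscle by isoforms of their own.

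The members took up more of the RNA in the CM than in the NCM fraction of every animal. Their summed level was 17299, 20229, 16727 and 22342 CPM in NCM wells and 87110.4, 111326, 44257 and 114964 in CM wells. The means were 19149 ± 2623 and 89414 ± 32544 (SD, n = 4 animals). The 4 NCM values lay within a narrow band, and all 4 CM values lay above them. KO1 had the lowest sum in CM wells, and KO2 the highest. In single wells the pattern was the same, with median sums of 16183, 17298, 15642 and 21142 in NCM wells and 99138, 116689, 54771 and 120943 in CM wells. The lower quartile of CM wells lay above the upper quartile of NCM wells in each animal.

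**Figure D1:**
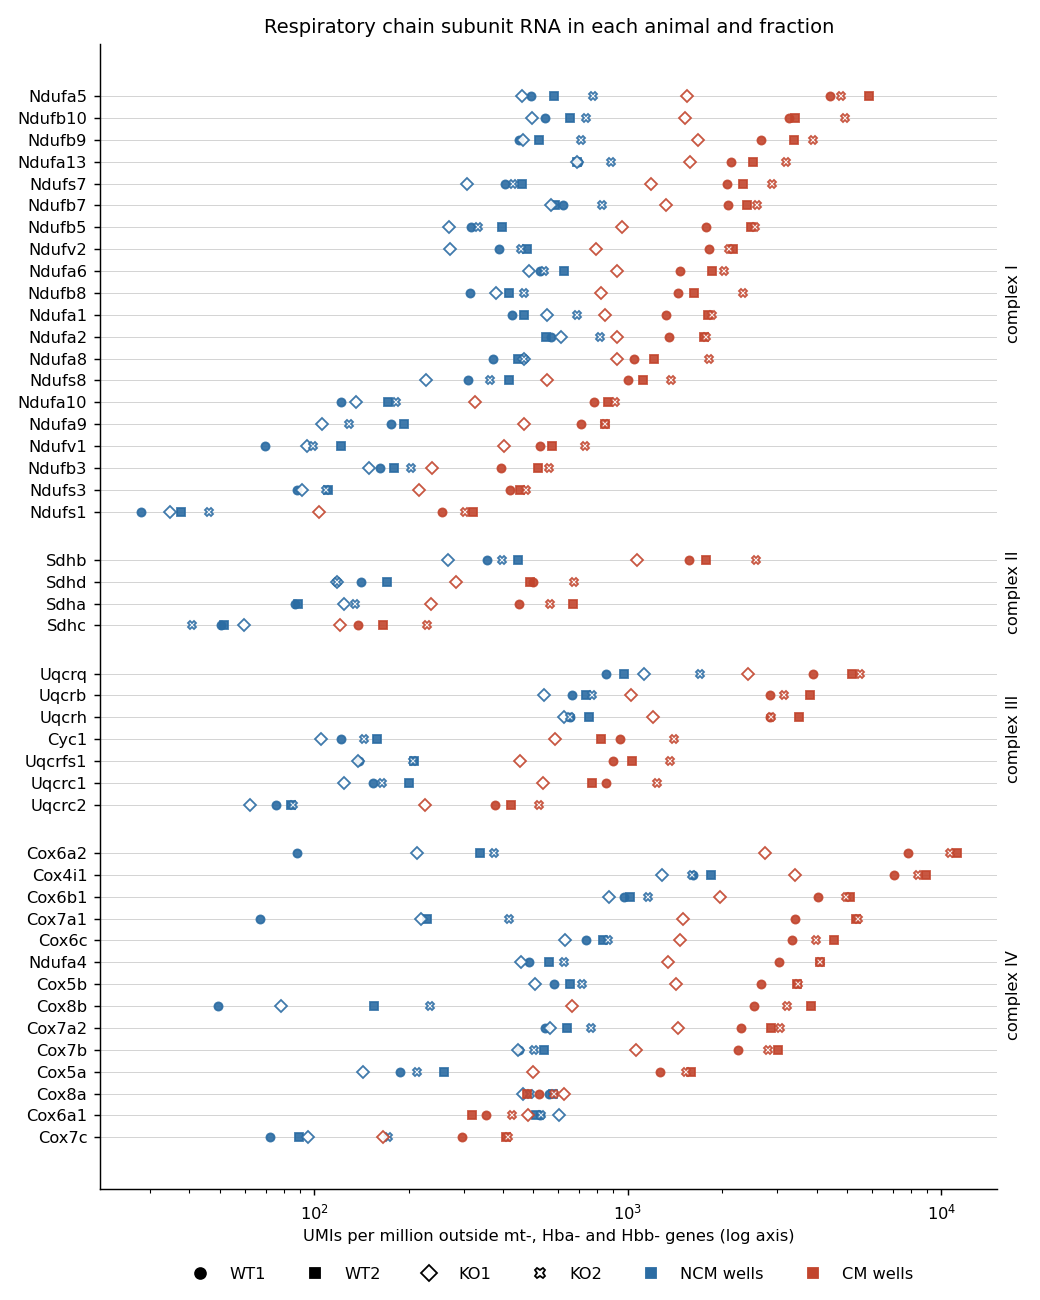
Level of each of the 45 genes, in CPM (UMIs per 1000000) outside mt-, Hba- and Hbb- genes on a log axis, with 1 symbol per animal, NCM wells in blue and CM wells in red, and genes grouped by complex. CM symbols lie to the right of NCM symbols for nearly all genes, the KO1 CM symbol (open red diamond) is the leftmost red symbol of 43 rows, and Cox6a1 and Cox8a are rows in which red symbols lie among or to the left of blue ones.

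The comparison of CM with NCM wells within each animal measured how far each subunit RNA followed the cardiomyocyte fraction. The fractions of an animal lay on different chips, which a block for the animal does not remove. With edgeR's quasi-likelihood test, the animal as a block and Benjamini-Hochberg adjustment over all 15439 genes tested, 43 of the 45 members were higher in CM wells and 0 were lower. Over all genes tested, 9.46% were called higher and 6.61% lower. The median log2 difference was 2.60 over the 45 members and -0.22 over all genes tested. All 45 genes passed the filter on low counts. Cox8a and Cox6a1 were the members that did not pass.

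Markers of cardiomyocytes differed along with this contrast. Summed UMIs of 13 sarcomeric and muscle markers made up 0.177, 0.457, 0.357 and 0.811% of NCM UMIs outside mt and haemoglobin genes and 7.12, 9.54, 3.90 and 9.48% of CM UMIs. In such sums, more cardiomyocytes and more subunit RNA per cardiomyocyte cannot be told apart. KO animals alone gave 3 members called higher (Cyc1, Cox8b and Cox6a2), against 1.08% of all genes, while 43 members had an unadjusted p under 0.05, against 17.1% of all genes. WT animals alone gave 43 members called higher, where 1138 of all 16470 genes tested were called higher and 432 lower. With plain library totals in place of TMM factors, the median over all genes moved from -0.22 to -0.76 and that of the members from 2.60 to 2.05.

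**Figure D2:**
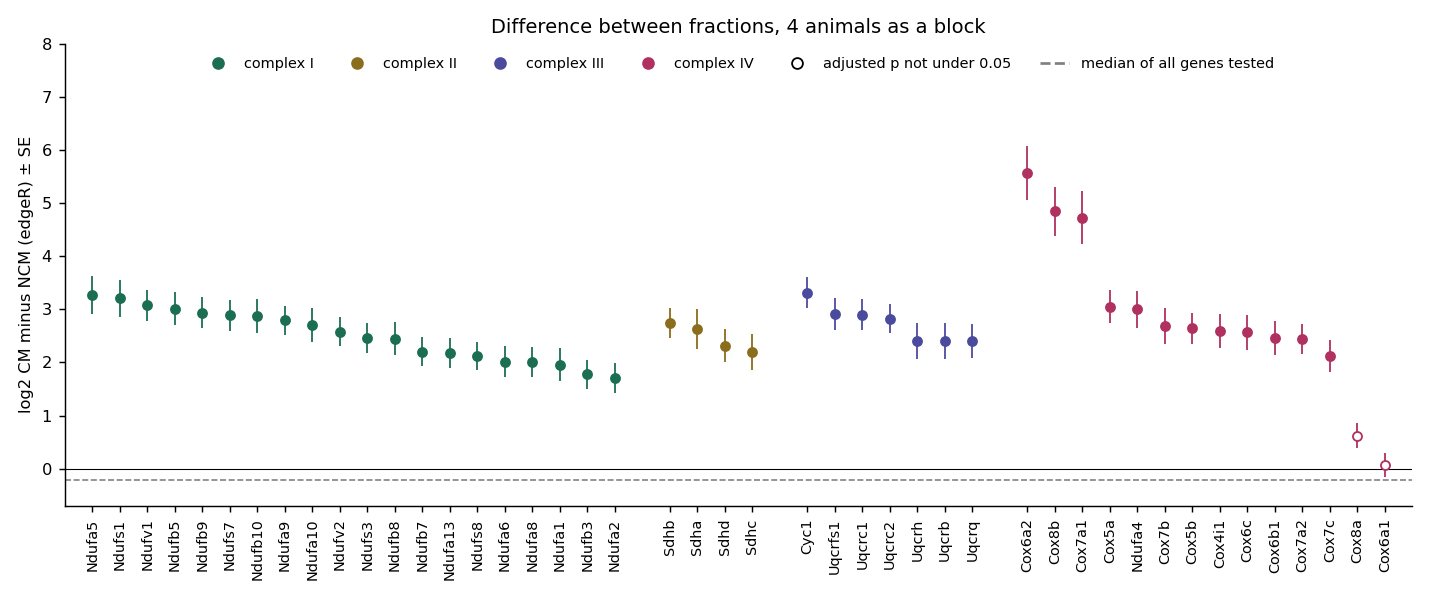
Difference between CM and NCM wells for each member, as edgeR log2 fold change with its standard error over 4 animals, grouped by complex. Filled points had an adjusted p under 0.05, the dashed line is the median of all genes tested (-0.22), the muscle isoforms Cox6a2, Cox8b and Cox7a1 stand at 4.73 to 5.56, and Cox8a and Cox6a1 are open.

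Complex I has a matrix arm that holds the flavin and iron-sulfur centres and a membrane arm that pumps protons. Its 20 members summed to 7077, 8111, 6857 and 9266 CPM in NCM wells and 30945, 37477, 17324 and 41905 in CM wells. All 20 were called higher in CM wells, with a median log2 difference of 2.52 and a range from 1.71 (Ndufa2) to 3.28 (Ndufa5).

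Ndufa5, an accessory subunit of the matrix arm, stood at 491, 583, 458 and 775 CPM in NCM wells and at 4408, 5869.8, 1547 and 4789 in CM wells. The groups did not overlap, and KO1 was lowest in both. Its log2 difference between fractions was 3.28 (SE 0.36, adjusted p = 0.000606, edgeR). The large iron-sulfur subunit Ndufs1 had levels of 27.99, 37.5, 34.6 and 46.3 in NCM wells and 256, 322, 104 and 302 in CM wells, a log2 difference of 3.21 (SE 0.35, adjusted p = 0.000606, edgeR). The KO1 CM level of Ndufs1 was well under the other 3 CM levels and still above every NCM level.

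Ndufa2, an accessory subunit of the matrix arm, was the complex I member with the smallest difference. Its levels were 569, 548, 613 and 817 in NCM wells and 1356, 1753, 924 and 1781 in CM wells, a log2 difference of 1.71 (SE 0.28, adjusted p = 0.00423, edgeR). The lowest CM value, that of KO1, was still above the highest NCM value, that of KO2. Ndufa8, an accessory subunit, stood at 371, 447, 468 and 468 in NCM wells and 1044, 1211, 924 and 1821 in CM wells, and here KO2 was clearly the highest CM animal. Ndufa9, an accessory subunit at the junction of the arms, stood at 176, 193, 106 and 129 in NCM wells. Its levels in CM wells were 712, 846, 467 and 844. Both KO animals were under both WT animals in the sums over all NCM wells, as for 23.6% of all genes tested, but not over all CM wells. In the cardiomyocyte-like class of CM wells described below, this order held for 11 members, Ndufa9 among them, against 18.6% of all genes tested. The flavoprotein subunits Ndufv1 and Ndufv2, which hold the NADH site and a neighbouring iron-sulfur cluster, differed between fractions by 3.07 (SE 0.28) and 2.58 (SE 0.27) on the log2 scale. The conserved core subunits Ndufs3, Ndufs7 and Ndufs8 differed by 2.46, 2.89 and 2.12. These core subunits lay within the range of the accessory subunits.

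Complex II, succinate dehydrogenase, has a flavoprotein (Sdha), an iron-sulfur subunit (Sdhb) and a pair of membrane anchors (Sdhc and Sdhd). Its 4 members summed to 635, 758, 569.7 and 690.0 CPM in NCM wells and 2653, 3099, 1708 and 4022 in CM wells. All 4 were called higher in CM wells, with log2 differences from 2.20 to 2.74. Sdhb levels were 356, 446, 268 and 396 in NCM wells and 1564, 1778, 1068 and 2557 in CM wells, a log2 difference of 2.74 (SE 0.28, adjusted p = 0.000471, edgeR). Sdhc levels were 50.4, 51.5, 59.6 and 40.7 in NCM wells and 138, 165, 121 and 229 in CM wells, a log2 difference of 2.20 (SE 0.34, adjusted p = 0.00315, edgeR). For both genes KO2 was the highest and KO1 the lowest CM animal, and no CM value reached down to an NCM value. Sdhd stood at 141, 171, 118 and 119 in NCM wells and 499.8, 488, 282 and 672 in CM wells.

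Complex III has cytochromes b and c1 and the Rieske protein at its catalytic centre. The 7 members, which leave out the mitochondrially encoded cytochrome b, summed to 2661, 3116, 2725 and 3726 CPM in NCM wells and 12656, 15550.1, 6454 and 16013 in CM wells. All 7 were called higher in CM wells, with a median log2 difference of 2.82 and a range from 2.40 to 3.31. The largest was that of Cyc1, cytochrome c1, at 122, 159, 105 and 144 in NCM wells and 947, 823, 586 and 1408 in CM wells CPM (log2 3.31, SE 0.30, adjusted p = 0.000253, edgeR). Uqcrfs1, the Rieske iron-sulfur protein, differed by 2.91 (SE 0.30).

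Uqcrq, a small subunit of the membrane part, stood at 850.4, 972, 1129 and 1702 in NCM wells and at 3908, 5192, 2424 and 5485 in CM wells. KO2 had the highest value of both fractions, and the KO1 CM value came closest to the NCM range. Uqcrc2, a core protein of the matrix side, stood at 75.7, 84.3, 62.4 and 85.4 in NCM wells and 376, 424, 226 and 519.8 in CM wells, with wide separation of the fractions. Uqcrb, a small subunit known as the ubiquinone-binding protein, stood at 666, 737, 542 and 768 in NCM wells and 2846, 3799, 1020.2 and 3143 in CM wells, and its KO1 CM value was under the other 3 CM values.

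Complex IV summed to 6927, 8244, 6575 and 8659 CPM in NCM wells and 40857, 55199.6, 18772 and 53024 in CM wells over its 14 members. Of these, 12 were called higher in CM wells, and the median log2 difference was 2.62 with a range from 0.07 to 5.56. Cox4i1, the common isoform of a subunit known for the regulation of the enzyme, stood at 1609, 1837, 1284 and 1605 in NCM wells and 7051, 8927, 3400.3 and 8409 in CM wells (log2 2.60, SE 0.32, adjusted p = 0.00102, edgeR). Cox5a, a matrix-side subunit, stood at 188, 259, 143 and 213 in NCM wells and 1264, 1590.3, 499.8 and 1536 in CM wells. Cox7c, a small transmembrane subunit, stood at 72.1, 89.8, 95.9 and 172 in NCM wells and 297, 408, 165 and 414 in CM wells (log2 2.12, SE 0.31, adjusted p = 0.00214, edgeR). For Cox7c the KO1 CM value was just under the KO2 NCM value, so the fractions overlapped across animals although CM was higher within each.

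UMIs of complex IV members per UMI of complex I members were 0.979, 1.02, 0.959 and 0.935 in NCM wells and 1.32, 1.47, 1.08 and 1.27 in CM wells. All 4 CM ratios were above all 4 NCM ratios. The complex IV sum includes the muscle isoforms Cox6a2, Cox7a1 and Cox8b, and Cox6a2 alone gave 7832, 11184, 2735 and 10631 CPM of it in CM wells. Median log2 differences between fractions were 2.62 for complex IV and 2.52 for complex I members. The ratio therefore does not describe complex IV members in general. KO1 had the lowest CM ratio. Ndufa4, once counted with complex I and now with complex IV, differed between fractions by 3.0 (SE 0.34) on the log2 scale.

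The paralog pairs set apart the extremes of this range. Their genes lie in GENCODE M21 on GRCm38 at chr5:115345642-115348981 (Cox6a1), chr7:128205435-128206387 (Cox6a2), chr7:30184144-30186078 (Cox7a1), chr9:79755361-79759878 (Cox7a2), chr19:7215153-7217616 (Cox8a) and chr7:140898945-140900446 (Cox8b). The 250 bases before the start of 5 of them are shown because the pairs moved apart between fractions. They are RefSeq windows on GRCm38.p6, written 5′ to 3′ on the strand of the gene, and end at the last base before the RefSeq start. For Cox6a1, Cox7a1 and Cox7a2 this start lies inside the GENCODE gene given above, so the end of the window lies in it too. Capitals mark matches, on either strand, to the ETS motif CCGGAAG, the NRF1 motif GCGCANGCG, the ERR motif AAGGTCA, the myogenic E-box CAGCTG, the YY1 motif AAGATGGC, the core promoter element TATAAA or the MEF2 motif. The windows are chr5:115348959-115349208 (minus strand) for Cox6a1, chr7:30183921-30184170 (plus strand) for Cox7a1, chr9:79759854-79760103 (minus strand) for Cox7a2, chr19:7217617-7217866 (minus strand) for Cox8a and chr7:140900447-140900696 (minus strand) for Cox8b.
Cox6a1: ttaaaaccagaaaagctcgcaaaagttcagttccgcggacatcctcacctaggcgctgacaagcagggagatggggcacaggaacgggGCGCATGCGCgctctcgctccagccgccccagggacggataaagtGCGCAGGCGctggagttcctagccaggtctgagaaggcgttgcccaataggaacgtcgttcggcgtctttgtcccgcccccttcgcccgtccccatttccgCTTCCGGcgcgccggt
Cox7a1: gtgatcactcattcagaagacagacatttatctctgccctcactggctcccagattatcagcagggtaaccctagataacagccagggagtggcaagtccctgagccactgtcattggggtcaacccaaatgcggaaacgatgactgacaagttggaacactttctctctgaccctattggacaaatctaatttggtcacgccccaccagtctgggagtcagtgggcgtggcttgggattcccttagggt
Cox7a2: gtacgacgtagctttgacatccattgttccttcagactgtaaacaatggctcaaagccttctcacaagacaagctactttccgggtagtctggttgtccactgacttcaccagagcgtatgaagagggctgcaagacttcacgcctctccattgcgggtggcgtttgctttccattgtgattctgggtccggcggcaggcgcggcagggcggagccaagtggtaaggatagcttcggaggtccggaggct
Cox8a: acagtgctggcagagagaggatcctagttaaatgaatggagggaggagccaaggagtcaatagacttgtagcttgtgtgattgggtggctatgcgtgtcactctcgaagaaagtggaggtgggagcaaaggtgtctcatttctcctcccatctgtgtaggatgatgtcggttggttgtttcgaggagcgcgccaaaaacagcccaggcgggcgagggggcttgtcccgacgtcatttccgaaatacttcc
Cox8b: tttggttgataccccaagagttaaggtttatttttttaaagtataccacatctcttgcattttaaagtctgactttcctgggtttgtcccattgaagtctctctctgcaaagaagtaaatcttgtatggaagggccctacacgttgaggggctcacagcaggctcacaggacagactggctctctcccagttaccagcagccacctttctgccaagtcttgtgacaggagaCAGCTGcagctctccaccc

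The Cox6a1 window held an ETS match 16 bases before the RefSeq start, a match that lies inside the GENCODE gene. Its NRF1 matches lay at 117, 161 and 162 bases, the last pair overlapping on opposite strands. Cox8b held an E-box match 19 bases before its start, and the other 3 windows held no match to these letters. The broadly used genes had 26 (Cox6a1), 14 (Cox7a2) and 11 (Cox8a) CpG dinucleotides in the window and GC contents of 62.8, 54.8 and 52.8%. The muscle genes had 4 (Cox7a1) and 1 (Cox8b) CpG and 51.2 and 47.2% GC. RefSeq windows were matched for 34 members (35 windows), with medians of 57.6% GC and 14 CpG, against 52.4% and 6 over all 32851 windows of the same length. Windows were not matched for Uqcrq, Ndufa2, Cox6a2, Cyc1, Cox6c, Ndufb9, Ndufs1, Sdhc, Uqcrb, Uqcrc2 and Cox4i1.

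ETS matches lay in 6 of the 35 member windows (17.1%) and in 6.91% of all windows, and NRF1 matches in 6 (17.1%) and in 5.16%. ETS factors and NRF1 are known regulators of nuclear genes for mitochondrial proteins. TATAAA matches lay in 2 member windows (5.71%) against 12.4% of all windows, and E-box matches in 4 (11.4%) against 13.0%. ERR, YY1 and MEF2 matches lay in 0 member windows, against 4.08, 1.57 and 2.92% of all windows. A match is a description of letters in the window, and no test was made.

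Cox6a2, the muscle isoform of subunit VIa, had the largest difference between fractions of all members. It stood at 88.3, 338, 213 and 375 CPM in NCM wells and at 7832, 11184, 2735 and 10631 in CM wells (log2 5.56, SE 0.51, adjusted p = 0.000287, edgeR). Its partner Cox6a1, the broadly used isoform, stood at 525, 509.9, 602 and 530.1 in NCM wells and 354, 319.8, 479.7 and 426 in CM wells (log2 0.07, SE 0.23, adjusted p = 0.861, edgeR). In plain CPM Cox6a1 was lower in CM than in NCM wells of every animal, with a ratio of 0.627 to 0.804. On the TMM scale its log2 difference was 0.07, and with plain library totals it was -0.47 without passing the test, so its direction depended on the scaling. Without KO2 it was -0.07 on the TMM scale, and it did not pass there either.

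Cox7a1, the muscle isoform of subunit VIIa, stood at 67.4, 228, 218 and 417 in NCM wells and at 3420.5, 5326, 1499 and 5405 in CM wells (log2 4.73, SE 0.50, adjusted p = 0.000526, edgeR). The broadly used Cox7a2 stood at 545, 641, 566 and 761 in NCM wells and 2295, 2855, 1441 and 3052 in CM wells (log2 2.44, SE 0.28, adjusted p = 0.000783, edgeR). Unlike the partners in the other pairs, Cox7a2 was called higher in CM wells, close to the median member.

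Cox8b, the muscle isoform of subunit VIII, stood at 49.2, 155, 78.4 and 235 in NCM wells and at 2519, 3843, 664 and 3222 in CM wells (log2 4.84, SE 0.47, adjusted p = 0.000339, edgeR). Cox8a, its broadly used partner, stood at 559, 579, 464 and 488 in NCM wells and 519, 478, 625 and 583 in CM wells (log2 0.62, SE 0.24, adjusted p = 0.116, edgeR). The Cox8a fractions overlapped, with a ratio of CM to NCM between 0.826 and 1.35 per animal. DESeq2 called Cox8a higher in CM wells (log2 0.71, adjusted p = 0.0387).

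The muscle share, the UMIs of the muscle isoform among those of both genes of a pair, does not depend on library scaling. For Cox6a it was 14.4, 39.8, 26.1 and 41.4% in NCM wells and 95.7, 97.2, 85.1 and 96.1% in CM wells. For Cox7a it was 11.01, 26.2, 27.9 and 35.4% in NCM wells and 59.8, 65.1, 51.00 and 63.9% in CM wells. For Cox8 it was 8.09, 21.1, 14.4 and 32.5% in NCM wells and 82.9, 88.9, 51.5 and 84.7% in CM wells. In each pair every CM share was above every NCM share, and KO1 had the lowest CM share. The KO1 CM share of Cox8 had an exact Clopper-Pearson 95% interval of 50.7 to 52.2%, which covers counting error only.

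The shares moved when wells were limited by mitochondrial content, a limit that also changed the cell make-up. It kept 84, 121, 38 and 63 CM wells, of which 34, 67, 2 and 26 belonged to the cardiomyocyte-like class described below. Among wells under 30% mitochondrial UMIs, the KO1 CM share was 33.2% for Cox8, 39.6% for Cox7a and 77.3% for Cox6a. The KO2 NCM share was 15.2% for Cox8 and 25.5% for Cox6a. KO1 kept 18 NCM wells under this limit, with shares of 8.66% for Cox6a, 10.8% for Cox7a and 2.51% for Cox8. In each pair every CM share was still above every NCM share, and KO1 still had the lowest CM share.

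**Figure D3:**
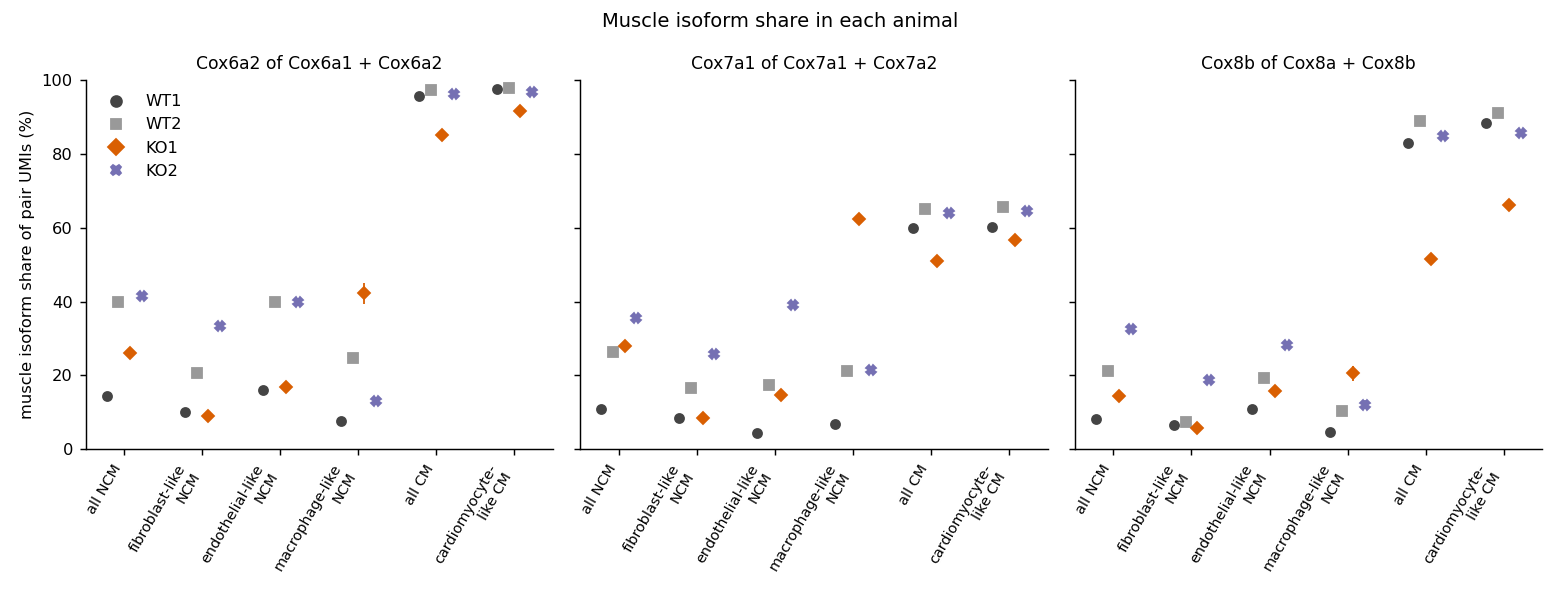
Share of the muscle isoform in the UMIs of each pair (%), with 1 symbol per animal and bars for exact 95% binomial intervals, in all NCM wells, 3 NCM classes, all CM wells and cardiomyocyte-like CM wells. CM shares lie above all-NCM shares in each pair, KO1 (orange diamond) is the lowest CM animal, and the KO1 macrophage-like Cox7a share of 62.3% stands above the other macrophage-like shares.

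Wells were grouped by clustering with the respiratory genes left out, and clusters were named from fixed markers. Cardiomyocyte-like wells (116, 197, 136 and 269 CM wells) came from clusters 10 and 11, which held different parts of the animals, with 4 of the 136 KO1 wells and 92 of the 197 WT2 wells in cluster 11. Cluster 10 took its name from folds against all other wells, and its leading genes within libraries were Pgam2, Sprr1a and Chchd10. Members summed to 115593, 125317, 65711 and 121484 CPM in these wells, and cardiomyocyte markers made up 11.1, 11.7, 7.36 and 10.5%. KO1 was lowest in both quantities. Its muscle shares were also the lowest, at 91.4, 56.6 and 66.0% for Cox6a, Cox7a and Cox8, where the other animals had 96.6 to 97.8%, 60.1 to 65.5% and 85.6 to 91.0%.

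NCM classes had sums in a common range. Fibroblast-like wells summed to 18115, 19344, 16069.9 and 20785 CPM, endothelial-like wells to 21262, 23092, 16882 and 23808 and macrophage-like wells to 17474, 16986, 17581 and 20449.9. Neutrophil-like wells had 10824, 15276, 14894 and 19392, the lowest of these 4 classes in every animal. Classes are built from expression, so they were compared with no test.

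On the CM chips, wells named for other cell types also carried much subunit RNA. Most endothelial-like CM wells came from cluster 12, which had 6 endothelial markers among its leading genes within libraries and 0 against all wells. At Leiden resolution 0.5 no separate cluster of such CM wells was named, and the cardiomyocyte-like CM wells of KO1 numbered 206 in place of 136. Endothelial-like CM wells summed to 81393, 121139, 42570.2 and 109515 CPM, with cardiomyocyte markers at 5.30, 8.62, 3.18 and 7.88% and endothelial markers at 0.646, 0.4997, 0.691 and 0.388%. Macrophage-like CM wells summed to 63455, 79850.2, 24786 and 83039.5, with cardiomyocyte markers at 4.24, 5.24, 1.46 and 6.07%. Both sums were above those of the same classes in NCM wells in every animal. Cardiomyocyte RNA was thus counted in wells named for other cell types, and its part in their subunit sums was not tested.

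Muscle isoforms in NCM wells were unevenly spread over wells. The 5% of wells with the most Cox6a2 UMIs held 78.8, 62.7, 67.9 and 54.7% of its NCM UMIs, and the corresponding share for Cox6a1 was 42.9, 51.4, 43.9 and 44.6%. A Cox6a2 UMI was found in 63, 70, 57 and 85% of NCM wells, with medians of 1, 1, 1 and 4 UMIs per well, and in 100% of CM wells of all 4 animals. UMIs of the 3 muscle isoforms per 1000 cardiomyocyte marker UMIs were 116, 158, 143 and 127 in NCM wells and 194, 213, 125 and 203 in CM wells. The ranges overlapped through KO1, which had the lowest CM value.

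Within the NCM classes, muscle shares of Cox6a were 10.1, 20.6, 8.89 and 33.4% in fibroblast-like, 15.97, 39.7, 16.97 and 39.9% in endothelial-like and 7.64, 24.7, 42.2 and 13.00% in macrophage-like wells. Cox7a shares were 8.62, 16.6, 8.40 and 25.8% in fibroblast-like, 4.30, 17.3, 14.7 and 39.2% in endothelial-like and 6.84, 21.3, 62.3 and 21.4% in macrophage-like wells. Cox8 shares were 6.64, 7.47, 5.65 and 18.7% in fibroblast-like, 10.8, 19.4, 15.7 and 28.3% in endothelial-like and 4.81, 10.4, 20.5 and 12.05% in macrophage-like wells. Neutrophil-like NCM wells had shares of 31.7, 58.2, 38.7 and 64.2% for Cox6a and 30.6, 29.7, 19.6 and 41.8% for Cox7a. Their Cox8 shares were 21.7, 7.14, 8.997 and 56.6%. NCM wells of clusters left without a name numbered 249, 238, 251 and 388. Their shares were 29.5, 65.99, 45.5 and 50.7% for Cox6a, 21.7, 40.4, 37.5 and 43.02% for Cox7a and 14.1, 49.3, 17.9 and 39.6% for Cox8. Endocardial-like NCM wells of WT1, WT2 and KO2 had Cox6a shares of 10.4, 65.4 and 33.8%. The high macrophage-like Cox7a share of KO1 came from a single well, which held 87.2% of the 1987 Cox7a1 UMIs of its 40 wells. In the same 40 wells, the top well held 31.5% of the 508 Cox6a2 UMIs and 47.9% of the 311 Cox8b UMIs. Top wells also held 44.8% of the Cox7a1 UMIs of WT1 endothelial-like and 37.9% of those of KO2 fibroblast-like NCM wells.

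The comparison of animals labelled KO with WT animals addressed whether subunit RNA differed with genotype, within the limit that genotype and chip are the same split. No member was called in NCM wells (17216 genes tested), in CM wells (14462) or in the difference between the fractions (17509), nor was any other gene, so 0% was called in each. At an unadjusted p under 0.05 stood 1 member in NCM wells, 0 in CM wells and 2 for the difference, by edgeR, against 12.1, 3.44 and 4.95% of all genes. DESeq2 called 579, 48 and 116 genes in these comparisons and 0 members. With 2 animals a group, these tests do not show that levels were alike.

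In NCM wells the median log2 difference over the members was -0.14, with 16 of 45 above 0. It was 0.11 (27 above 0) without KO1, -0.43 (5 above 0) without KO2 and 0.02 (24 above 0) with plain totals, so its sign depended on the animals kept and on the scaling. Ndufa9 had the smallest value, at -0.81 (SE 0.25, adjusted p = 0.349, edgeR). Sdhd followed with -0.56 (SE 0.24) and Cox5a with -0.48 (SE 0.32). The largest values were those of Cox7a1 at 0.96 (SE 0.61), Cox7c at 0.58 (SE 0.37) and Uqcrq at 0.49 (SE 0.28). Both KO animals were under both WT animals for 7 members (Ndufa6, Ndufa9, Sdhd, Uqcrh, Cox4i1, Cox6a1 and Cox8a), against 23.6% of all genes tested. Both were above for 1 member (Sdha), against 21.2% of all genes.

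In CM wells the median over the members was -0.22, with 10 of 45 above 0. The smallest values were those of Ndufa5 at -0.68 (SE 0.79), Cox8b at -0.66 (SE 0.91) and Uqcrb at -0.65 (SE 0.77). The largest were those of Cox6a1 at 0.33 (SE 0.38), Ndufa8 at 0.27 (SE 0.60) and Cyc1 at 0.19 (SE 0.64). The standard errors were about as large as the differences. Both KO animals were above both WT animals for 1 member (Cox6a1), against 15.9% of all genes, and below for 0, against 15.1%.

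KO1 and KO2 lay on opposite sides of the WT animals in CM wells. On a log2 scale of TMM-scaled CPM plus 1, relative to the mean of WT1 and WT2, the median over members was -0.25, 0.25, -1.29 and 0.40. KO1 was below the other 3 animals for 43 members (all but Cox6a1 and Cox8a), against 32.0% of all genes tested. KO2 was above the other 3 for 35 members, against 23.1%. Without KO1 the median KO minus WT difference was 0.40 with all 45 above 0, and without KO2 it was -1.32, so its sign depended on which KO animal was left out. In NCM wells the medians were -0.14, 0.14, -0.42 and 0.11, with KO1 again the lowest animal.

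**Figure D4:**
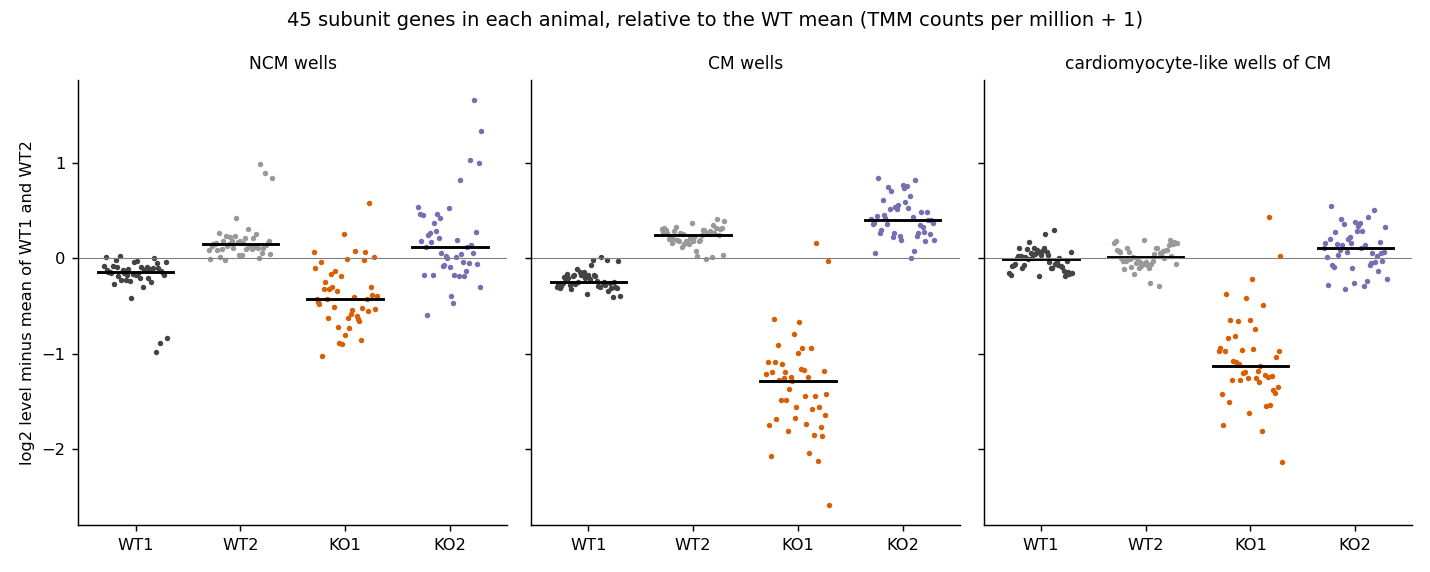
Level of each of the 45 genes in each animal relative to the mean of WT1 and WT2 (log2 of TMM-scaled CPM plus 1), in NCM wells, CM wells and cardiomyocyte-like CM wells, with 1 dot per gene and a bar at the median. In CM wells the KO1 median is -1.29 and the KO2 median 0.40, on either side of the WT animals.

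Other measures moved with KO1. Its CM wells had the fewest UMIs outside mt and haemoglobin genes, the highest mitochondrial share of the CM sums (47.2%) and the lowest cardiomyocyte marker share (3.90%). In cardiomyocyte-like wells the KO1 mitochondrial share was 59.2%, against 38.4 to 48.1% in the other animals. The part of these measures in the low KO1 subunit levels was not tested. In CM wells with under 30% mitochondrial UMIs the median KO minus WT difference over members was -0.55. These sums held 84, 121, 38 and 63 wells, of which 34, 67, 2 and 26 were cardiomyocyte-like. The part of this cell make-up in the difference was not tested.

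Cardiomyocyte-like wells taken alone gave a median KO minus WT difference of -0.37 with 5 of 45 above 0, and edgeR called 0% of 12537 genes. At an unadjusted p under 0.05 stood 0 members, against 4.72% of all genes. DESeq2 called 71 genes and 0 members. Medians per animal were -0.01, 0.01, -1.13 and 0.10 relative to the WT mean, so KO1 stood apart here as well. KO1 was below the other 3 for 43 members, against 39.7% of all genes, and KO2 was above for 23, against 20.8%. Both KO animals were below both WT animals for 11 members, against 18.6% of all genes, and above for 1 (Cox6a1), against 17.9%. Without KO2, 36 members were called lower in KO1 than in the WT animals among 965 genes called, with 3.69% of all genes called lower, a fit in which the lone KO animal is assumed to vary like the WT pair. Without KO1, 0 members were called and the median was 0.09.

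Fibroblast-like, endothelial-like and macrophage-like NCM wells gave 0% of genes called and 0 members called. Their member medians were -0.15, -0.25 and -0.01. With plain totals they were 0.01, -0.10 and 0.11, and without KO1 they were 0.0098, -0.015 and 0.039, so the sign of the first and the last turned. At an unadjusted p under 0.05 stood 3, 4 and 1 members by edgeR, against 10.1, 8.76 and 9.14% of all genes, and DESeq2 called 373, 277 and 385 genes and 0 members. Both KO animals were below both WT animals for 14, 15 and 11 members, against 23.2, 19.6 and 24.1% of all genes. Both were above for 3, 1 and 7 members, against 19.9, 21.9 and 17.1%. KO1 medians relative to the WT mean were -0.54, -0.62 and -0.33, and KO2 medians were 0.03, 0.00 and 0.16. For complex II, KO2 was under the WT mean in each of these classes (-0.32, -0.38 and -0.12), as was KO1 (-0.41, -0.38 and -0.89). For complex III, KO2 was under it in endothelial-like wells (-0.38, against -0.67 in KO1) and at 0.03 in fibroblast-like and in macrophage-like wells.

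The difference of the genotype effect between fractions had a median of -0.27 over the members, with 13 of 45 above 0. Its sign depended on the KO animal kept, with 0.29 (34 above 0) without KO1 and -0.93 (2 above 0) without KO2. Cox7a1 stood at -1.77 (SE 0.61) and Cox8b at -1.62 (SE 0.56), each with an adjusted p of 0.951 by edgeR. In NCM wells KO2 had the highest level of both genes and also the highest cardiomyocyte marker share (0.811%), and the part of the latter was not tested.

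Subunits encoded in mitochondrial DNA were counted against the nuclear members in the same wells. UMIs of mitochondrially encoded subunits per member UMI were 2.74, 3.96, 55.4 and 20.6 in NCM wells and 4.61, 3.32, 13.6 and 3.26 in CM wells. In NCM wells both KO values were well above both WT values. In CM wells KO1 was above the other animals, while KO2 lay beside WT2. The same ratio was 1.74, 2.23, 27.05 and 13.1 in fibroblast-like, 3.40, 3.95, 62.8 and 21.5 in endothelial-like and 1.32, 2.08, 27.4 and 10.9 in macrophage-like NCM wells, each with both KO animals above both WT animals. In cardiomyocyte-like CM wells it was 5.35, 3.73, 14.98 and 3.39.

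**Figure D5:**
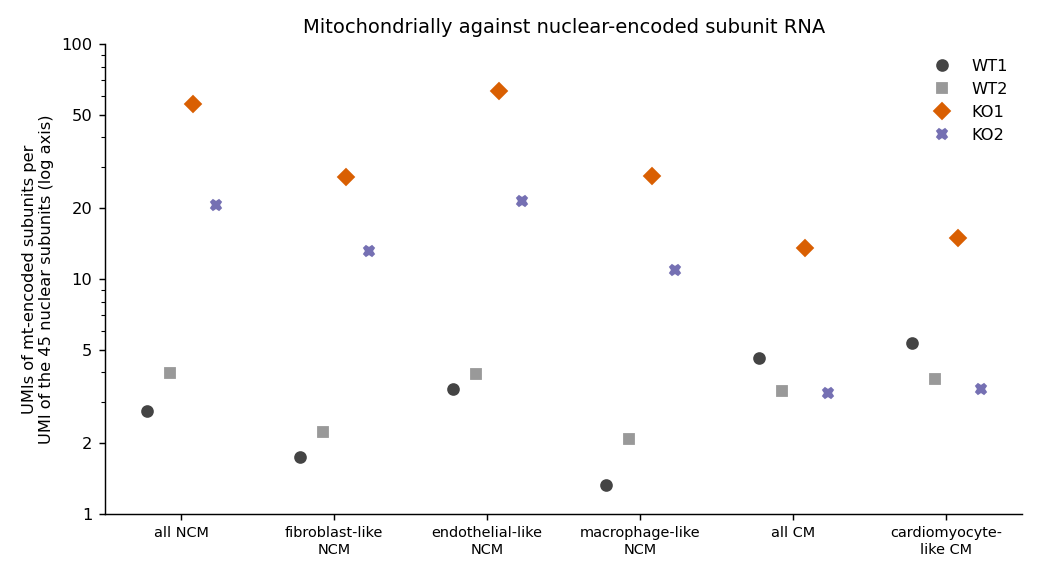
UMIs of mitochondrially encoded subunits per UMI of the 45 nuclear-encoded members, on a log axis, with 1 symbol per animal, in all NCM wells, 3 NCM classes, all CM wells and cardiomyocyte-like CM wells. KO1 and KO2 lie above the WT animals in NCM wells (55.4 and 20.6 against 2.74 and 3.96), and KO1 alone in CM wells (13.6).

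With mitochondrial genes kept in the totals, 11 mitochondrially encoded subunit genes were tested for KO against WT in NCM wells. All 11 were above 0 with a median log2 difference of 3.27, 10 had an unadjusted p under 0.05 and 0 were called after adjustment by edgeR. Of all genes in that fit, 12.2% had an unadjusted p under 0.05. The nuclear members of the same wells, with totals outside mitochondrial genes, had a median of -0.14. In the comparison of fractions, the 11 genes had a median of 1.80, 4 had an unadjusted p under 0.05, against 30.1% of all genes, and 0 were called.

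That median covered unlike animals. Mitochondrially encoded subunits made up 4.33, 6.85, 34.6 and 23.7% of all UMIs in NCM wells and 24.8, 23.8, 31.7 and 23.7% in CM wells, so the share was higher in CM wells of both WT animals, lower in CM wells of KO1 and nearly equal in KO2. The difference of the genotype effect between fractions had a median log2 of -3.39 over 12 tested genes, of which 10 had an unadjusted p under 0.05, against 4.99% of all genes, and 0 were called by edgeR. Mt-Nd4l, a membrane subunit of complex I, had the largest difference between fractions, at 2.00 (SE 0.75, adjusted p = 0.111, edgeR). Per 1000000 of all UMIs it stood at 544, 826, 3749 and 2025 in NCM wells and at 4026, 3884, 3448 and 2486 in CM wells, higher in CM wells of WT1, WT2 and KO2 and lower in CM wells of KO1.

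Other genes of the pathway were taken from fixed lists and tested in the same comparison of CM with NCM wells, where 9.46% of all genes were called higher. Of 16 further complex I subunits 16 were called higher and 0 lower, with a median log2 difference of 2.32. Ndufa11, a membrane-arm subunit, had 3.30 (SE 0.32), Ndufab1, the mitochondrial acyl carrier protein, had 2.76 (SE 0.32) and Ndufs6, a zinc-binding subunit, had 2.66 (SE 0.32). Of 7 tested further complex III and IV subunits and carriers, 4 were called higher, among them cytochrome c (Cycs, 2.97) and the small complex III subunits Uqcr10 (2.72) and Uqcr11 (2.48). Their median was 1.10.

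ATP synthase, which uses the proton gradient, had 14 of 15 nuclear subunits called higher and 0 lower, with a median of 2.65. Atp5g1, a gene for the c-ring subunit, had 3.39 (SE 0.30), and the stalk subunits Atp5o and Atp5h had 2.95 and 2.86. All 14 citric acid cycle genes were called higher with a median of 2.49, among them the isocitrate dehydrogenase subunits Idh3a (3.16) and Idh3b (2.92). Of 37 tested assembly factors, 19 were called higher and 0 lower, with a median of 1.21. Lyrm7 and Uqcc1, which assist complex III assembly, had 3.10 and 2.68, and Cox10, an enzyme of the haem A pathway, had 2.42.

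Of 20 regulators of mitochondrial genes, 5 were called higher and 0 lower, with a median of 0.76. The nuclear receptor Ppara, which acts on genes of fatty acid use, had the largest difference, at 5.98 (SE 0.66), followed by the coactivator Ppargc1a at 5.56 (SE 0.65) and the muscle regulator Perm1 at 4.86 (SE 0.88). The Ppara difference rests on few counts, with 9, 36, 2 and 32 UMIs in all NCM wells of an animal and 233, 325, 63 and 785 in CM wells. Ppargc1a stood at 0.578, 0.970, 1.93 and 4.85 CPM in NCM wells and at 52.5, 77.8, 20.4 and 67.6 in CM wells. Like 43 of the members, it was lowest in KO1 among the CM values.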

How the data were processed

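The deposited values are UMI counts for each gene in each well: their sum over genes matched the distinct pairs of gene and UMI that the authors' per-well reports list. The submitters' processing notes name STAR 2.5.2b, the Subread 1.4.6-p1 package, featureCounts and the mm10 build. No source used here gives the annotation release, strand setting, UMI rule or handling of multi-mapped reads, so reads shared with pseudogene copies of these subunits cannot be set apart. The planned test held for UMI counts. Beside the 29245 gene columns, 70 spike-in columns took 4.98e-05% of UMIs and were left out, as were 40 control wells. Of the columns of per-sample values, 0 had no sample.

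Animal and fraction of each well came from the authors' per-well reports, and animals are the replicates. Counts outside 33 mt- and 9 Hba- or Hbb- columns were summed per animal and tested with edgeR 4.0.16 (quasi-likelihood, TMM, filterByExpr) in R 4.3.3, with the animal as a block between fractions, because both fractions of a heart come from 1 animal. Adjustment was by Benjamini-Hochberg at 0.05 over all genes tested. DESeq2 1.42.0 was an alternative. The procedure was tested on simulated counts with large known changes and no chip effect. Such counts do not measure its power or error for the animals compared here.

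Wells were clustered with scanpy 1.11.5 and leidenalg 0.10.2 (2000 variable genes without 124 respiratory genes, 30 components, 15 neighbours, resolution 1.0). A cluster was named when at least 3 fixed markers were among its 30 leading genes, and sums needed 20 wells. Scrublet called 20 (WT NCM), 10 (WT CM), 2 (KO CM) and 3 (KO NCM) doublets, which were left in except in an alternative. On the KO chips it marked 0.308 and 0.205% of wells, so it may not have worked there. The member sums rest on 13126144 to 93816921 UMIs outside mt and haemoglobin genes per animal and fraction.

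Given with a value in every animal were the 6 paired isoforms, the highest and lowest member of each complex, and the 3 largest and 3 smallest differences of each comparison of all wells. From other lists, up to 3 called genes with the largest difference were named. One of these is not reported here. Members and lists were chosen with earlier results of these data known.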

Additional observations from a re-analysis of the deposited data

How the results depend on the processing

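The median CM minus NCM difference over the members was above 0 under every setting tried, while counts over all genes moved. The quasi-likelihood test of edgeR called 2481 genes between CM and NCM wells. It called 4026 with plain totals, 1570 in WT animals alone and 188 in KO animals alone, where 3 members were called, and DESeq2 called 4319. Leaving out 1 animal gave 1248 to 2726 genes, and without KO replicate 2 the count was the lowest. With no replicate block 43 members and 2661 genes were called, so the block changed no call count by over 1.5 times. No paired analysis was possible for KO against WT because equal numbers only name different animals.

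For KO minus WT, where edgeR called 0 genes, DESeq2 called 579 (NCM wells), 48 (CM wells), 116 (the difference between fractions), 71 (cardiomyocyte-like), 373 (fibroblast-like), 277 (endothelial-like) and 385 (macrophage-like). Without the filter on low counts edgeR called 226, 47, 43, 97, 258, 185 and 235 in the same order, with 1 member, Cox7a1 in macrophage-like wells (log2 2.08), where a single KO1 well held most of its UMIs. At resolution 0.5 the macrophage-like wells gave 1 gene.

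Leaving out 1 animal gave 0 to 1 genes in NCM wells, 0 to 5 for the difference between fractions, 4 to 965 in cardiomyocyte-like wells with 0 to 36 members, 0 to 1 in fibroblast-like and 0 to 7 in endothelial-like wells. The median over members ranged from -0.43 to 0.11 in NCM wells, -0.93 to 0.29 for the difference between fractions, -1.32 to 0.40 in CM wells, -1.15 to 0.087 in cardiomyocyte-like, -0.59 to 0.0098 in fibroblast-like, -0.65 to -0.015 in endothelial-like and -0.35 to 0.039 in macrophage-like wells. In each of these 7 the lowest value was the one without KO2. The cause was not tested. Of the values of named genes, 460 were unchanged in call, 6 passed the threshold under an alternative and 11 no longer passed, all 11 in KO animals alone. Wells under 30% mitochondrial UMIs gave sums of 20 wells in CM wells only, so the other comparisons were not run with it. The macrophage-like values of KO1 rest on 40 wells.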
